A study of Mus musculus with 2 samples.

Results

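Sebaceous gland cells were studied in dorsal skin of imiquimod-treated mice by droplet-based single-cell RNA sequencing. A barcode was taken as a sebaceous gland cell when it held 1000 or more UMIs (unique molecular identifiers, each standing for 1 captured transcript) from 200 or more genes, with no more than 10% of the UMIs mitochondrial. It also had to have Scd1 at 0.05% of its UMIs or more, at least 2 UMIs of Awat2, Mc5r, Far2 and Elovl3 in sum, and no UMI of the adipocyte gene Adipoq. This rule found 218 cells among 21231 cells that passed the first 3 limits: 91 of 11626 in the wild-type library (WT) and 127 of 9605 in the library from Chrna5 knockout mice (KO). Chrna5 encodes the alpha5 subunit of nicotinic acetylcholine receptors. Both groups were female mice of 6 to 8 weeks given 62.5 mg of cream with 5% imiquimod, a Toll-like receptor 7 agonist that causes psoriasis-like inflammation, for 6 days, and skin was taken on day 7. The labels name 5 mice per experimental group, without saying whether a library pools them, and name both C57BL/6N and C57BL/6J; the knockout was backcrossed. The skin was digested with collagenase and live cells were sorted as SytoxBlue-negative. A group given cream base was not analysed here, so every cell described came from imiquimod-treated skin.

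Each genotype is 1 library, so no test between genotypes was possible. Ratios and shares carry exact 95% intervals that cover counting error only, not the spread between mice. Levels are CPM, the UMIs of a gene per 1000000 UMIs of the summed sebaceous gland cells of a library. A gene is called higher or lower from size alone, at 2-fold or more with at least 20 UMIs over both libraries. Of 9684 genes with that many UMIs, 450 (4.65%) were higher and 620 (6.4%) were lower in the KO cells, and the median log2 ratio of all of them was -0.01. No UMI of Chrna5 was found in the sebaceous gland cells of either library. In keratinocytes outside the gland, called other keratinocytes here, it had 6 UMIs in WT and 0 in KO, too few to check the labels, and the labels do not say which part of the gene was removed. The libraries shared 49 barcodes, none of them a sebaceous gland cell.

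Sebaceous glands are appendages of the hair follicle made of sebocytes, specialised keratinocytes. Sebocytes divide at the edge of the gland, fill with lipid droplets as they move inward, and finally burst and release their whole content as sebum. Sebum is rich in wax esters, triglycerides, cholesterol esters and squalene. Its making needs fatty acid synthesis and elongation, desaturation by stearoyl-CoA desaturases, reduction of fatty acids to alcohols by Far enzymes and joining of alcohols to fatty acids by Awat enzymes.

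The cells fell into deep and shallow ones. Of the WT cells 87 had at least 10000 UMIs and 4 had fewer, and of the KO cells 90 had at least 10000 UMIs and 37 had fewer. Only 1 cell lay between 5000 and 10000 UMIs. The median depth was 45321 UMIs in WT and 29432 in KO over all members, against 6375 and 6779 over all cells kept. Deep cells carried 99.8% of the UMIs of the WT pool and 98.0% of those of the KO pool. The summed levels thus describe mainly the deep cells, except for genes that are low in them. The 37 shallow KO cells carried fibroblast markers at 2376 CPM in sum, pericyte and smooth muscle markers at 782 CPM, and macrophage and monocyte markers at 773 CPM. In the 90 deep KO cells the same lists were at 28.8, 2.84 and 8.91 CPM. Over all KO members they were at 76.4, 18.7 and 24.4 CPM, so these sums drew largely on the shallow cells. Mgst1, a glutathione transferase gene of sebocytes that the rule did not use, was at 1144 CPM in the shallow and 3064 CPM in the deep KO cells. None of the 6 fibroblast markers was at 0 in the shallow KO cells. The part of other cell types in these barcodes was not tested. Over all members, fibroblast markers were at 77.0 (WT) and 76.4 CPM (KO). Adipocyte markers were at 135 and 63.5 CPM in sum, beside 70.6 and 143 CPM in all other cells kept. The WT sum was mainly the adipokine gene Retn, with 603 UMIs, 98.7% of them in 3 cells. The median deep cell of each library had these markers at 0 CPM. Of these 8 adipocyte markers 4 were at 0 in each library, among them Adipoq, which the rule required to be absent. Upper follicle markers, among them the duct keratin gene Krt79, were at 5697 and 3488 CPM, below their 11780 and 16978 CPM in all other cells kept, which include upper follicle cells. In other keratinocytes they were at 4994 and 4721 CPM, below the sum of the WT members and above that of the KO members. These member sums stood above the typical cell. The median deep WT cell held 2567 CPM of these markers, with a highest cell of 76832 CPM. For deep KO cells the median was 2144 CPM and the highest 22736 CPM. Both medians were thus below the sums of other keratinocytes.

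**Figure D1:**
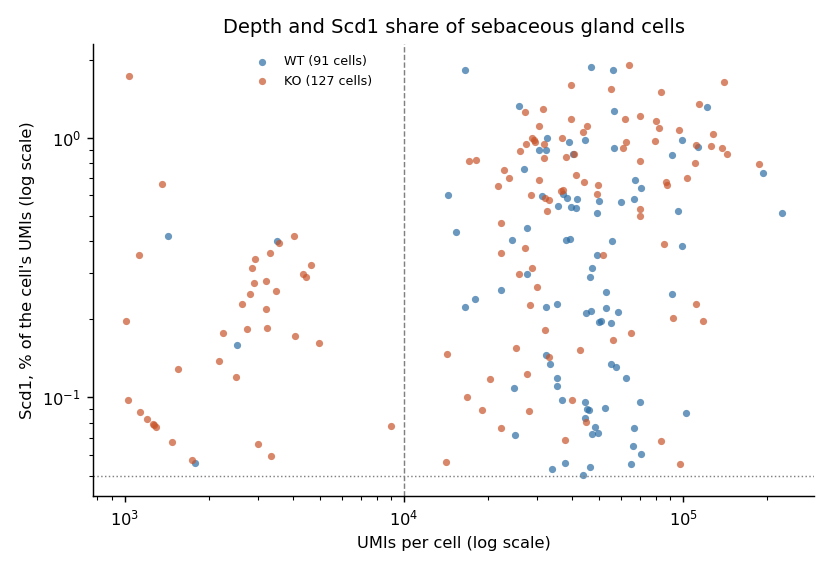
Each point is a sebaceous gland cell of the WT or KO library, with its UMIs on the horizontal axis and the Scd1 share of its UMIs on the vertical axis, both on log scales. The dashed line marks 10000 UMIs and the dotted line the 0.05% limit of the rule; 37 KO cells and 4 WT cells lie left of the dashed line.

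Sebaceous gland cells made up 0.783% of the WT cells kept (exact interval 0.631 to 0.960) and 1.32% of the KO cells kept (1.10 to 1.57). Among deep cells alone the shares were 0.748% (0.600 to 0.922) and 0.937% (0.754 to 1.15), whose intervals overlap. The shallow cells were 0.0344% of WT and 0.385% of KO cells kept. The median mitochondrial share of the members was 3.73% in WT and 5.26% in KO, and with a limit of 5% the sebaceous gland cells were 0.642% of WT and 0.652% of KO cells. The share thus depended on depth and on the mitochondrial limit; the part of digestion and sorting was not tested.

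The values that chose the cells are given as a description. Scd1, the stearoyl-CoA desaturase of sebocytes (chr19:44394455-44407879, minus strand, GRCm38), took 0.0504% to 1.87% of a WT cell's UMIs with a median of 0.298%, and 0.0555% to 1.91% of a KO cell's with a median of 0.393%. Summed, Scd1 was at 4727 CPM in WT and 7414 in KO. Elovl3, an elongase of very long chain fatty acids, was at 652 and 1303 CPM. Far2, which reduces fatty acids to alcohols for wax, was at 406 and 581 CPM. Awat2, a wax synthase, was at 41.6 and 45.6 CPM, and Mc5r, the melanocortin receptor of the gland, had only 9 and 11 UMIs. Exactly 2 UMIs of these 4 sebum genes were found in 4 WT and 29 KO members. Just outside the rule lay 67 WT and 122 KO cells with enough Scd1 but 1 sebum UMI, and their Mgst1 levels were 1132 and 724 CPM against 2466 and 3025 CPM in the members.

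Among genes the rule did not use, lipid genes stood far above the other cells of the skin; since the rule chose the cells by lipid genes, this is a description. Against all other cells kept, 1067 genes (11.0%) were at least 2-fold higher in both libraries and 1346 (13.9%) lower. Fa2h, which puts a hydroxyl group on fatty acids (chr8:111345135-111393824, minus strand, GRCm38), was at 827 (WT) and 1561 CPM (KO), 186-fold and 199-fold above all other cells kept in the same library. Serpina3j, a serine protease inhibitor gene, was 204-fold and 164-fold above them. Awat1, a wax synthase gene, was 176-fold and 150-fold above them, and Mgll, the monoglyceride lipase, 77.1-fold and 75.9-fold. Elovl6, the elongase that makes stearate from palmitate (chr3:129532355-129638495, plus strand, GRCm38), was 70.7-fold and 118-fold above them. Soat1, which esterifies cholesterol, was 44.0-fold and 50.2-fold above them, and Cidea, a lipid droplet protein, 37.4-fold and 56.7-fold. Scd3 was 179-fold and 157-fold above them, but reads of Scd1, Scd3 and the Serpina3 genes may be split among near-identical copies. Cers4, a ceramide synthase gene, was 62.0-fold and 77.8-fold above the other cells, and Slc27a4, a fatty acid transporter gene, 26.4-fold and 51.7-fold. Other genes high in the same order were Adig, Rarres1, Adtrp, Pank1, Pxmp4, Crat, Pdss1, Echdc1 and Emc9, the last of them 21.6-fold and 32.8-fold above.

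Against keratinocytes outside the gland, defined by Krt5 plus Krt14 at 0.2% of UMIs or more and Krt79 below 0.1%, 1047 genes (10.8%) were at least 2-fold higher in the gland cells of both libraries. From the lists below, 18 of 24 fatty acid synthesis genes, 18 of 26 cholesterol synthesis genes, 15 of 17 lipid droplet genes, 19 of 24 peroxisome genes and 13 of 16 mitochondrial fatty acid oxidation genes were among them. The fatty acid count includes the rule gene Elovl3. In the other direction 1056 genes (10.9%) were at least 2-fold lower in the gland cells of both libraries, among them 12 of 14 basal keratinocyte genes. The comparison cells were chosen by Krt5 plus Krt14, keratins of basal cells, so this basal count is partly built in and is a description. Of the lysosome and autophagy list, 2 of 22 genes were higher and 3 were lower. Against upper follicle keratinocytes, with Krt79 at 0.1% or more, 1119 genes (11.6%) were higher and 843 (8.71%) lower in both libraries.

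Several elongase genes were higher in the KO cells. Elovl6 was at 1090 (WT) and 3214 CPM (KO), a ratio of 2.95 (2.85 to 3.04). The cells of the libraries overlapped: the median deep WT cell had Elovl6 at 319 CPM with a highest value of 6799, and the median deep KO cell had 1995 CPM with a highest value of 10450. Elovl5, which lengthens polyunsaturated fatty acids, was at 36.3 and 132 CPM, a ratio of 3.64 (3.07 to 4.35). Elovl7, another elongase, was at 66.7 and 179 CPM, and Elovl4, which makes the longest chains, at 1925 and 3804 CPM (ratio 1.98). Slc25a1, the carrier that brings citrate out of mitochondria for fatty acid synthesis, was at 245 and 554 CPM (ratio 2.26). Fasn, fatty acid synthase, was at 226 and 340 CPM (interval of the ratio 1.39 to 1.63), and Acaca, acetyl-CoA carboxylase, at 33.7 and 39.3 CPM (1.17, 0.940 to 1.45). Acsbg1, an acyl-CoA synthetase gene, was the remaining higher one, with a ratio of 2.28. Over the list, 5 of 24 measured genes were higher, 2 were lower (Hacd1 and Mcat), and the median log2 ratio was 0.68 beside -0.01 for all genes. In other keratinocytes the list's median was -0.11, with 0 of 24 higher and 1 lower. Over all 14813 genes measured there, 945 (6.38%) were higher and 855 (5.77%) lower. In upper follicle keratinocytes the list's median was -0.01, with 3 of 24 higher and 0 lower. Elovl6 was higher there too, with a ratio of 2.27 (2.04 to 2.54). Over all 13060 genes measured in those cells, 606 (4.64%) were higher and 834 (6.39%) lower.

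Desaturase genes showed a list median of 0.61, with 3 of 9 higher and 1 lower. The higher ones were Fads3, Fads6 and Degs2, each with under 100 UMIs in all. The abundant desaturases were not called: Scd1 had a ratio of 1.57 and Scd3 of 1.35. Scd2, the desaturase of brain and early skin, was lower, at 37.2 (WT) and 18.1 CPM (KO).

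Wax and ester synthesis differed less. Its list median was 0.13, with 3 of 18 genes higher and 0 lower. Far1, the other reductase that makes fatty alcohols, was at 43.1 (WT) and 122 CPM (KO) (ratio 2.83, 2.40 to 3.34). Awat1 was at 140 and 318 CPM (2.28), but 34.1% of WT and 40.9% of KO cells held any UMI of it. Agpat1 was the remaining gene, at 10.3 and 28.4 CPM. Soat1 was close in the libraries, at 1634 and 1461 CPM (0.894, 0.866 to 0.924). Dgat2, which makes triglycerides, was at 26.3 and 13.3 CPM.

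Of the abundant lipid droplet and lipid handling genes, some were close in the libraries and others were higher in KO. Plin2, the coat protein of lipid droplets, was at 2161 (WT) and 2159 CPM (KO) (0.999, 0.972 to 1.03), and the fatty acid carrier Fabp5 at 18077 and 16318 CPM. Mgll was at 1487 and 2868 CPM (1.93, 1.87 to 1.99), short of the 2-fold limit. Plin4 was at 2.63 and 17.3 CPM and Plin5 at 0.656 and 6.94 CPM, both from few UMIs. The fatty acid importer Cd36 was at 282 and 521 CPM (1.85, 1.73 to 1.97). The list's median was 0.42, with 2 of 17 higher and 1 lower (Cidec).

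Cholesterol synthesis genes showed a list median of 0.43, with 4 of 26 higher and 0 lower. Among the higher ones were the feedback sensors Insig1 (78.5 and 201 CPM, ratio 2.56) and Insig2 (31.7 and 84.7 CPM, ratio 2.67), and Tm7sf2 (12.3 and 27.4 CPM). Idi1, an enzyme of isoprenoid synthesis, was at 1559 and 2305 CPM (1.48). Srebf1 and Srebf2, the transcription factors that drive lipid genes, differed less: Srebf1 at 36.8 and 34.7 CPM and Srebf2 at 84.0 and 93.1 CPM. In other keratinocytes the list's median was -0.42, with 0 of 27 higher and 4 lower. In upper follicle keratinocytes it was -0.30, with 0 of 26 higher and 0 lower.

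The promoters of the lipid genes are shown for the motifs that sterol-regulated promoters are known to hold. In the 250 bases before the start, the CCAAT box bound by NF-Y was searched on both strands, with TCACNCCAC, a form of the sterol regulatory element, also on both strands. RefSeq promoters matched 19 of the 27 genes in the cholesterol list, and 18 of those 19 (94.7%) held CCAAT, against 33.8% of 32851 promoters. Of 23 matched fatty acid genes 15 (65.2%) held it, of 16 wax and ester genes 7 (43.8%), of 19 lipid droplet genes 8 (42.1%) and of 7 desaturase genes 1 (14.3%). Of 18 matched IL-17 and TNF response genes 0 did, and of 18 matched G2 and M phase genes 16 (88.9%) did. The sterol element was in 1 cholesterol gene, Hmgcs1, against 1.05% of all promoters. A list gene was counted if any of its promoters held the motif, while the share over all promoters counts each promoter once. The list shares are thus not in the same unit as the share over all promoters. A match is a description of letters only. CCAAT on the other strand reads ATTGG. In the Fasn promoter matches on the 2 strands overlap, and both are counted among its 3 matches. Hmgcs1 makes HMG-CoA for cholesterol and Fasn makes palmitate, and they are printed as an example from each list, with both motifs in capitals. Hmgcs1 is at chr13:119690101-119690350 on the plus strand and Fasn at chr11:120824548-120824797 on the minus strand, both in GRCm38.p6.
Hmgcs1: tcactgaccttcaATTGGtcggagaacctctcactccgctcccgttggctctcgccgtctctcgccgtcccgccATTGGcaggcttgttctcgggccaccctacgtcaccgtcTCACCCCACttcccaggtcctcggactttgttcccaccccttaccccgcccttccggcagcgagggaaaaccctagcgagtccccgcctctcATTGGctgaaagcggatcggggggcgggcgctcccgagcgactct
Fasn: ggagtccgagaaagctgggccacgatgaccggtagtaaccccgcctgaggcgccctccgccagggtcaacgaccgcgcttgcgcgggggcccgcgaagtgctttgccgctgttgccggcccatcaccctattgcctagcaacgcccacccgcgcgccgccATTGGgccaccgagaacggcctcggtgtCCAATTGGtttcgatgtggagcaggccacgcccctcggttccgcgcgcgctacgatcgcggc

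Of 19 measured regulators and receptors of the gland 1 was higher and 1 lower, shares near those of all genes (4.65% and 6.4%). Pparg, the nuclear receptor needed for sebocyte differentiation, was at 12.3 (WT) and 29.2 CPM (KO) (2.38, 1.74 to 3.30). It was the gene called higher, and its UMIs were found in 35.2% of WT and 42.5% of KO cells. In other keratinocytes Pparg was at 2.17 and 1.01 CPM, so the ratios pointed in opposite directions; the difference between the cell types was not tested. Ppard was called lower, at 23.0 and 8.93 CPM. Prdm1, a marker of upper follicle and gland cells, was at 36.8 and 42.1 CPM, and Sox9 at 450 and 789 CPM, a ratio of 1.75 beside 1.77 in other keratinocytes.

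Hmox1, haem oxygenase, was at 102 (WT) and 390 CPM (KO) (3.81, 3.44 to 4.23). It was the only higher one of 20 glutathione and redox genes, of which Nqo1 was lower, and in other keratinocytes its ratio was 1.04. Fibroblasts held more of it, 572 CPM in WT and 870 CPM in KO. Sdr16c5, a retinol dehydrogenase, was at 45.3 and 153 CPM (3.37), with 1.05 in other keratinocytes. Ces1d, a carboxylesterase with close copies in the genome, was at 16.8 and 95.2 CPM (5.65, 4.44 to 7.29). The steroid enzymes Hsd3b6 (33.0 and 76.4 CPM) and Srd5a1 (32.8 and 74.4 CPM) were the 2 genes called higher among 13 measured steroid and retinoid genes, a list with a median of 0.29. Peroxisome genes showed a list median of 0.50, with 2 of 24 higher (Far1 and Ehhadh), and mitochondrial fatty acid oxidation genes a median of 0.29 with 0 of 16 called.

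Inflammatory genes were lower in KO, several of them more than 10-fold. S100a8, 1 chain of calprotectin (chr3:90668978-90670035, plus strand, GRCm38), was at 2184 CPM in the sebaceous gland cells of WT and 16.3 in those of KO, a level 134-fold lower (108 to 169). The size depended on the processing more than this interval shows. It was 31.0-fold lower with each cell thinned to 1000 UMIs and 200-fold lower over deep cells only. In WT deep cells S100a8 ranged from 17.8 to 14180 CPM with a median of 703, and in KO deep cells from 0 to 158 CPM with a median of 0. The highest deep KO cell was below the lower quartile of the deep WT cells, 163 CPM. Shallow KO cells reached 1231 CPM, in a cell of 3249 UMIs, and shallow WT cells 43387 CPM, in a cell of 1429 UMIs. Other keratinocytes held S100a8 at 7010 (WT) and 323 CPM (KO), a 21.7-fold difference, and fibroblasts, which should lack it, at 320 and 7.83 CPM. The WT gland cells were above the fibroblast level, which free RNA can give. The partner chain S100a9 was at 1374 and 12.9 CPM, 107-fold lower, with 26.1-fold after thinning to 1000 UMIs and 158-fold over deep cells only.

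Lcn2, which binds bacterial iron carriers (chr2:32384633-32388252, minus strand, GRCm38), differed in another way from calprotectin. It was at 2086 CPM in WT gland cells and 284 CPM in KO ones, 7.34-fold lower (6.94 to 7.76), and in each library it was higher in the gland cells than in other keratinocytes, which held 684 and 127 CPM. Fibroblasts held Lcn2 at 686 (WT) and 12.7 CPM (KO). All deep WT cells held Lcn2, from 89.9 to 12050 CPM with a median of 1511. The deep KO cells ranged from 0 to 2555 CPM with a median of 230, so the ranges overlapped and the medians were apart. Orm1, an acute-phase glycoprotein, was at 383 and 45.4 CPM in the gland (8.44-fold lower, 7.35 to 9.73) and at 171 and 130 CPM in other keratinocytes, where it was 1.32-fold lower. Il1f9, an IL-36 cytokine gene, was at 81.8 and 5.95 CPM, 13.7-fold lower in the gland and 2.75-fold lower in other keratinocytes. Slpi, a secreted protease inhibitor, was 5.90-fold lower. Crot, which moves fatty acids out of peroxisomes as carnitine esters, was at 63.0 and 11.3 CPM, 5.57-fold lower in the gland and 1.37-fold in other keratinocytes. Stfa1, a cysteine protease inhibitor with near-identical copies, was 32.7-fold lower.

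Of the IL-17 and TNF response list, 12 of 17 measured genes were lower and 2 were higher, with a median log2 ratio of -2.22. The higher ones were Cxcl1, a neutrophil chemokine gene (47.3 and 100 CPM, ratio 2.12), and Saa2, with 93.3% of its 30 KO UMIs in 1 cell. Saa3 was also lower, but fibroblasts held it at 4055 CPM in WT, so free RNA can give its level in the gland cells. Nfkbia, an early NF-kB target, was level at 522 and 537 CPM (1.03, 0.972 to 1.09), and Nfkbiz, which IL-17 induces, was at 174 and 258 CPM. In other keratinocytes 13 of 21 genes of the list were lower and 0 higher, with a median of -1.53, and in upper follicle keratinocytes 14 of 20 were lower with a median of -2.02, where 606 of all 13060 genes (4.64%) were higher and 834 (6.39%) lower. The list was thus lower in all 3 populations, and whether it differed more in the gland was not tested. With mitochondrial UMIs limited to 5%, the median in the gland was -1.03.

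**Figure D2:**
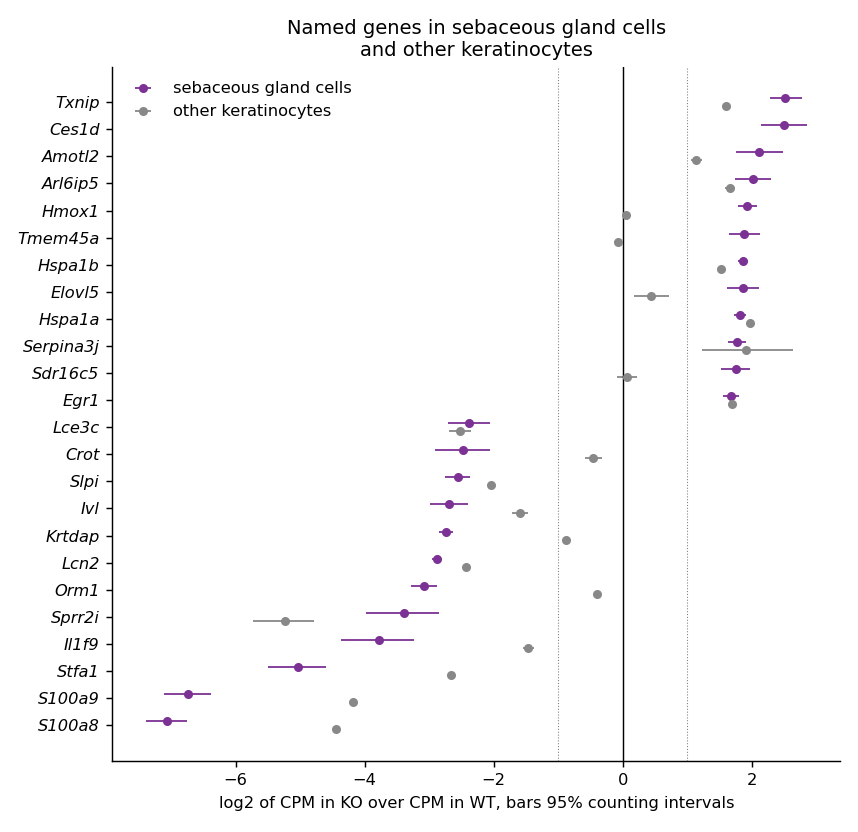
Points are log2 ratios of CPM in KO over WT in sebaceous gland cells and in other keratinocytes, bars are 95% counting intervals, and dotted lines mark 2-fold; a point is left out with fewer than 20 UMIs. The 12 genes at the bottom lie below -2 in the gland cells, and Hmox1, Sdr16c5 and Tmem45a lie near 0 in other keratinocytes.

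Wound keratins and their partners were lower, 11 of 14 measured, with a median of -1.97; other keratinocytes had 11 of 16 lower and a median of -2.59. Krt6a was at 335 (WT) and 105 CPM (KO), Krt16 at 227 and 99.4 CPM and Krt17 at 797 and 353 CPM. Sprr1a, a cornified envelope gene, went the other way, at 571 and 893 CPM. Of the small proline-rich and late envelope genes, Sprr2i had 62.7% and Lce3c 49.6% of its WT UMIs in 1 cell. Antimicrobial genes had 6 of 9 lower and a median of -1.68. Suprabasal, duct and barrier genes were lower in 10 of 17, with a median of -1.22, whereas in other keratinocytes 1 of 20 was lower, 4 were higher and the median was 0.26. That difference was not tested. Krtdap, a suprabasal gene, was at 1116 and 167 CPM, with 36.8% of its WT UMIs in 3 cells. Ivl, involucrin, was at 145 and 22.4 CPM (6.47-fold lower, 5.29 to 7.97). With the mean of the CPM of single cells, which gives each cell the same weight, the list's median was -0.10. Basal keratinocyte genes had 4 of 14 lower and 1 higher (Krt15, from few UMIs), with a median of -0.39. That direction did not hold: the median was 0.34 with the mean of the CPM of single cells, and 0.04 over the 8 genes without possible free RNA. Krt5, the basal keratin, was at 266 and 83.5 CPM, with 50.3% of its WT and 45.4% of its KO UMIs in 3 cells of the library. Krt79 was at 1842 and 1627 CPM (0.883, 0.857 to 0.911).

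Proteins that bind or modulate nicotinic receptors were in a list of 20, of which 5 were measured. Ly6d, a keratinocyte surface protein, was at 1680 (WT) and 620 CPM (KO) (2.71-fold lower, 2.60 to 2.83), with 2290 and 2454 CPM in other keratinocytes. Slurp1 had 22 UMIs in WT and Slurp2 31, both with 0 in KO. A single cell held 100% of the Slurp1 and 96.8% of the Slurp2 UMIs of WT, so these differences rested on 1 cell. Of the receptor genes themselves, Chrnb1 had 3 UMIs, Chrna1 and Chrnb2 had 1 each, and the others in the list had 0.

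Heat shock genes were higher in KO, 6 of 14, with a median of 0.95, and 0 were lower. Hspa1b was at 390 (WT) and 1426 CPM (KO) (3.66) and Hspa1a at 251 and 889 CPM (3.54), with reads that may be split between these near-identical genes. Dnaja1, a co-chaperone, was at 546 and 1314 CPM. Immediate early genes had 5 of 20 higher and a median of 0.71, led by Egr1 at 141 and 450 CPM (3.20). Other keratinocytes had medians of 0.81 and 0.93 for these lists, with 5 of 14 and 8 of 20 higher. Both lists are known to respond to tissue digestion, and their part in the difference between libraries was not tested. Txnip, which binds thioredoxin, was at 34.1 and 196 CPM, with 56.8% of its KO UMIs in 3 cells. Tmem45a was at 38.9 and 144 CPM with 51.4% of its KO UMIs in 3 cells, and without the highest doublet scores its log2 ratio was -0.40. Arl6ip5 was at 28.7 and 116 CPM and Amotl2 at 17.1 and 73.6 CPM; both were also higher in other keratinocytes, with ratios of 3.18 and 2.21. Of the KO UMIs of Amotl2 43.4% were in 3 cells, and without the highest doublet scores its ratio was 1.78, under the 2-fold limit. Glycolysis and hypoxia genes were lower in 6 of 18, with a median of -0.48: Pkm, pyruvate kinase, was at 325 and 140 CPM and Ldha at 515 and 245 CPM, while Vegfa was higher at 21.0 and 49.8 CPM.

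**Figure D3:**
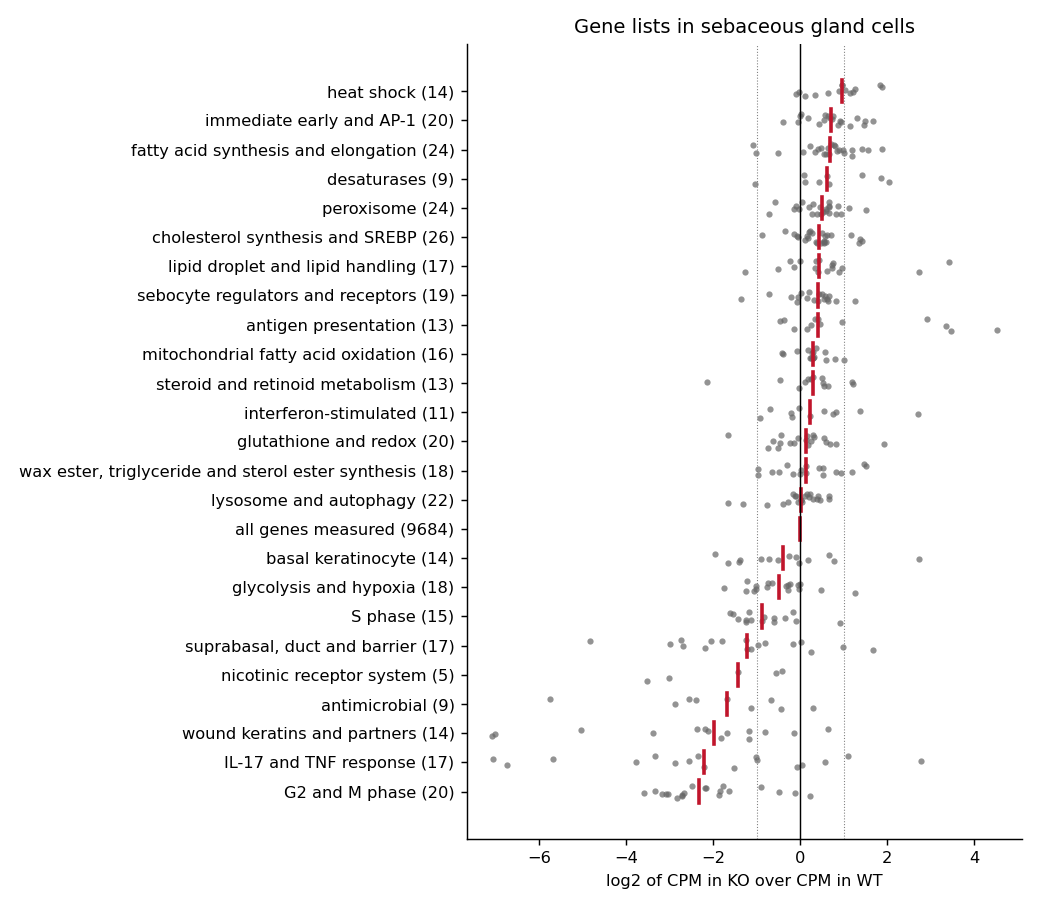
Each grey point is a measured gene of a list, at its log2 ratio of CPM in KO over WT in sebaceous gland cells; red bars are medians, the number of measured genes is in brackets, and dotted lines mark 2-fold. The IL-17 and TNF response list has its median at -2.22 and the fatty acid synthesis list at 0.68; for all 9684 genes only the median is drawn.

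Interferon-stimulated genes had 2 of 11 higher (Isg15, a ubiquitin-like protein gene, at 18.2 and 46.6 CPM, and Ifi27l2a), 0 lower and a median of 0.23. Lysosome and autophagy genes had 0 of 22 higher, 2 lower (Ctsh and Casp14) and a median of 0.03. Some lists rested on few cells. Of the antigen presentation list 4 of 13 genes were higher in KO, all of class II: H2-Aa, H2-Ab1, H2-Eb1 and Cd74. A single KO cell held 90.0% of the Cd74 UMIs, 88.0% of those of H2-Aa and 94.2% of those of Cd207, a Langerhans cell gene. Class I was near level, with B2m at 840 and 1149 CPM and H2-K1 at 664 and 734 CPM. The adipokine gene Retn had 603 UMIs in WT, 98.7% of them in 3 cells.

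Cell cycle genes were lower in the KO sum. Of 20 measured G2 and M phase genes 16 were lower and 0 higher, with a median of -2.33, and of 15 S phase genes 7 were lower. With the mean of the CPM of single cells the G2 and M phase median was -0.77, and the summed level of the list was 1145 CPM in WT against 834 in KO. Top2a was at 32.2 (WT) and 5.75 CPM (KO), and Birc5 at 35.9 and 3.57 CPM. Few cells had a high level of the list: 11 of 87 deep WT cells (12.6%, 6.48 to 21.5) and 3 of 90 deep KO cells (3.33%, 0.693 to 9.43) had the list at 2000 CPM or more. Any UMI of Mki67 or Top2a was in 28 of 87 deep WT and 27 of 90 deep KO cells. After each cell was thinned to 1000 UMIs, 2 of 91 WT and 2 of 127 KO cells held such a UMI, against 7.55% and 3.54% of other keratinocytes and 0.718% and 0.397% of fibroblasts. At that depth a difference between the gland cells of the libraries was not detectable.

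The cells differed widely among themselves in Fa2h, so the deep cells of both libraries were ranked by it and split in 3 equal groups at 126 and 1102 CPM. This split was chosen after the data were seen, and it is a range, not a cell type; 8 cells lay within 20% of the lower edge and 10 within 20% of the upper. The Fa2h-low group held 41 WT cells (47.1% of the deep cells, 36.3 to 58.1) and 18 of the 90 KO cells (interval 12.3% to 29.8%). The Fa2h-middle group held 26 (29.9%) and 33 (36.7%). The Fa2h-high group held 20 WT cells (23.0%, 14.6 to 33.2) and 39 KO cells (43.3%, 32.9 to 54.2). In these libraries a larger share of the WT cells was in the Fa2h-low group and a larger share of the KO cells in the Fa2h-high group. This describes the cells of 1 library each, and the pooled ratio of Fa2h, 1.89, was known when the split was chosen. Of the 11 WT cells with G2 and M phase genes at 2000 CPM or more, 10 were in the Fa2h-low group, as were 2 of the 3 KO cells.

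Within a group, the medians of the fatty acid, desaturase, cholesterol and lipid droplet lists were nearer 0 than over all cells. The wax and ester list was not: in the Fa2h-middle group its median was 0.26, with 4 of 17 genes higher and 3 lower. The summed level of the lipid droplet list did not follow its median. It was 15272 (WT) and 9429 CPM (KO) in the Fa2h-low group and 27577 and 16858 CPM in the middle. In the Fa2h-high group it was 33727 and 32740 CPM. Of all 7331 genes measured in the Fa2h-low group 446 were higher and 637 lower. In the Fa2h-middle group 498 of 6869 were higher and 314 lower, and in the Fa2h-high group 346 of 7758 were higher and 371 lower. Scd1 was at 1507 CPM in WT and 2010 in KO in the Fa2h-low group, at 4845 and 5161 in the middle and at 9187 and 9993 in the Fa2h-high group, with ratios of 1.33, 1.06 and 1.09 where the pooled ratio was 1.57. Far2 had ratios of 1.09, 0.85 and 0.92, and Fasn 1.31, 0.98 and 1.04. The fatty acid list had medians of 0.35, 0.24 and 0.17 from the Fa2h-low to the Fa2h-high group, and the cholesterol list 0.35, 0.02 and -0.02. The mean of the 3 log2 ratios gave the fatty acid list a median of 0.25 in place of 0.68. A split by the summed share of Krt5 and Krt14, keratins of basal cells, into 3 equal groups gave 22, 32 and 37 WT cells and 51, 40 and 36 KO cells from the lowest share up, the last KO group with a median of only 3529.5 UMIs. Elovl6 was higher in KO in each of these (882.5, 1358 and 972 CPM in WT against 3808, 2816 and 2260 CPM), and Scd1 was at 4565, 5547 and 3953 CPM in WT against 8326, 7100 and 4962 CPM. The pooled difference in sebum genes and the larger share of cells high in Fa2h went together, and which part each had cannot be told apart in 1 library per genotype.

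A few lipid genes kept a higher level in KO in each group. Elovl6 had ratios of 2.92 (2.42 to 3.52), 1.79 (1.66 to 1.93) and 1.81 (1.75 to 1.88). Insig1 had ratios of 3.01, 1.78 and 1.63, and Pparg of 2.38, 2.28 and 1.96, the last from few UMIs. Hmox1 had ratios of 1.96, 3.17 and 4.38, and Cd36 of 2.28, 1.52 and 1.26. Elovl4 did not hold one direction, with 0.30 in the Fa2h-low, 4.68 in the Fa2h-middle and 1.07 in the Fa2h-high group. Awat1 had 0.16 in the Fa2h-low group, from 3 KO UMIs (0.0312 to 0.480), then 10.1 and 1.14. Soat1 was at 2483 (WT) and 1214 CPM (KO) in the Fa2h-middle group and level in the Fa2h-high group, at 1775 and 1776 CPM.

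S100a8, Lcn2 and Orm1 were lower in KO in each group. S100a8 was at 2861 CPM in WT and 12.8 in KO in the Fa2h-low group, at 2325 and 10.97 in the middle and at 988 and 10.1 in the Fa2h-high group. Lcn2 was nearly the same across the WT groups, at 1977, 2052 and 2193 CPM, and was at 466, 263 and 256 CPM in those of KO. Orm1 had ratios of 0.16, 0.12 and 0.14. The IL-17 and TNF response list had medians of -1.97, -0.86 and -1.93, with 11 of 16, 8 of 17 and 7 of 13 measured genes lower and 1, 3 and 0 higher. These counts stand beside 637 of 7331, 314 of 6869 and 371 of 7758 lower over all genes, and 446, 498 and 346 higher. The antimicrobial list had a median of 0.05 in the Fa2h-middle group, with 2 of 5 genes higher and 2 lower, and of -1.63 and -2.74 in the others. The suprabasal list differed most in the Fa2h-low group, at -2.07, with -0.16 in the middle and -0.49 in the Fa2h-high group.

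**Figure D4:**
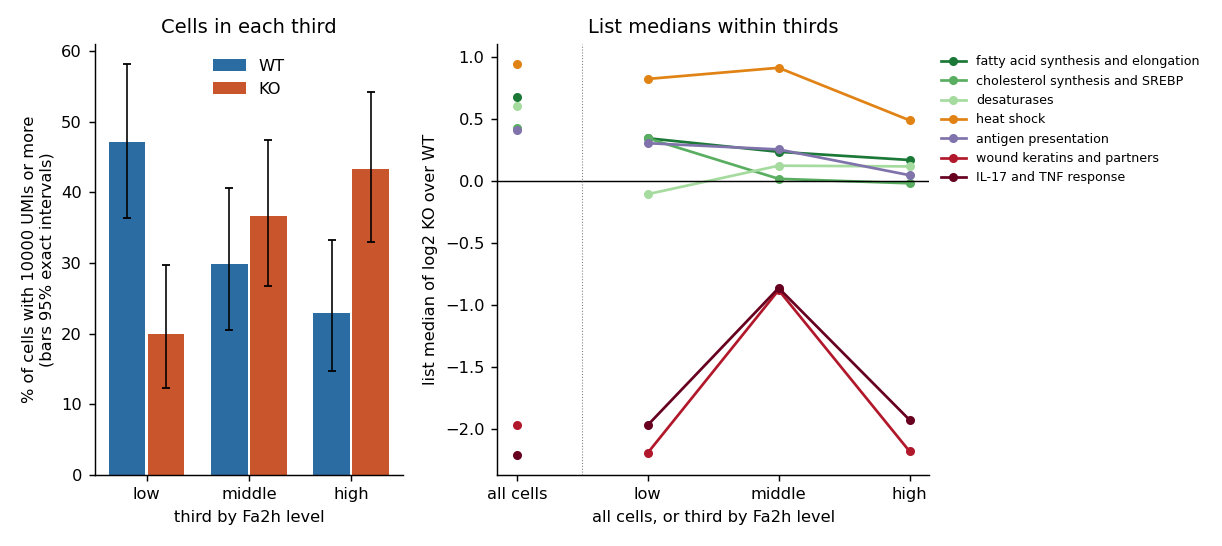
Left, the share of deep cells of each library in each group by Fa2h level, with 95% exact intervals: 47.1% of WT cells and 18 of 90 KO cells are in the Fa2h-low group. Right, list medians of log2 KO over WT in all cells and within each group, over the genes with enough UMIs there: the fatty acid and cholesterol lists lie nearer 0 within groups than in all cells, and the IL-17 and TNF response and wound keratin lists lie at -0.86 or lower.

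**Figure D5:**
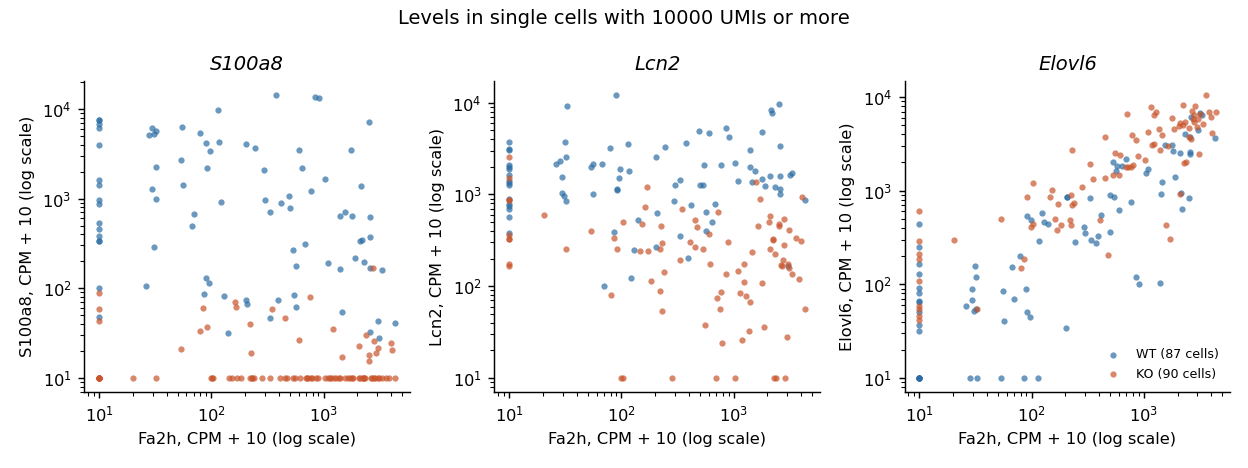
Each point is a cell with 10000 UMIs or more, with its Fa2h level and its level of S100a8, Lcn2 or Elovl6, in CPM plus 10 on log scales. Most WT cells lie above most KO cells in S100a8 and Lcn2 over the range of Fa2h, and Elovl6 is higher in cells with more Fa2h in both libraries.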

How the data were processed

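Counts are UMIs per gene and barcode, which the authors deposited as 1 matrix per library; per the file headers the matrices came from Cell Ranger software (version 3.1.0), and the submitters' processing notes name Cell Ranger 3.0.2, Seurat 3.0 and mm10. The matrices held 14557 WT and 10886 KO barcodes with 147260653 and 123839924 UMIs and 31053 genes. Members were found by the rule given in the report and their UMIs summed per library (4571395 in WT, 5039917 in KO). Ratios of CPM have exact 95% intervals from the binomial distribution of a gene's UMIs given their sum; shares have Clopper-Pearson intervals. A count of 0 was set against 3 UMIs. The intervals and calls were also run on simulated counts of 9684 genes, 200 of them given a difference. Of those 200, 95% had an interval that included the ratio set for them, as did 96.06% of the rest. A call was made for 1.297% of the rest. The simulation bears on counting error only and says nothing about the spread between cells or mice.

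Named genes were, each way, the first 12 by the interval bound nearest 1 among genes with at least 50 UMIs and 50 CPM in the higher library; the 20 with the highest ratio over all other cells, taking the lower of both libraries, with at least 100 CPM; from each list the member with the highest CPM and the largest ratio each way; and the markers and rule genes. Mitochondrial, ribosomal, haemoglobin, receptor segment, Xist, Gm and Rik genes were left out. Other genes were named for their known role after their values were seen. Genes whose level was under 20% of that in all other cells of the library where they were higher were left out as possible free RNA. The members and gene lists were chosen with earlier results of these data known. Scrublet (scanpy 1.11.5) called 0 doublets by its own threshold in either library, so it did not work here, and the highest scores were removed only as an alternative. Some genes that the rule names are not reported here. Gene positions are from GENCODE M21. Other tools were numpy 2.4.6, scipy 1.17.1, pandas 2.3.3 and matplotlib 3.10.9.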

Additional observations from a re-analysis of the deposited data

Results flagged for a closer look

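Dapl1, a gene of differentiating epithelium, had a log2 KO over WT of -3.00 in sebaceous gland cells (17.5 CPM in WT, 2.18 in KO) and of 2.93 in other keratinocytes (8.29 and 63.3 CPM). The directions are opposite, and the difference between the cell types was not tested. A single WT cell held 98.8% of the WT UMIs of Dapl1.

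Pparg had a log2 KO over WT of 1.25 in sebaceous gland cells and of -1.10 in other keratinocytes (2.17 and 1.01 CPM), again opposite and not tested. The cell with the most UMIs of Pparg held 12.5% of them in WT and 9.52% in KO.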

How the results depend on the processing

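With Scd1 at 0.5% or more the shares were 0.292% (WT) and 0.635% (KO), 295 genes were higher and 404 lower, and the fatty acid list median was 0.31. The KO share was 0.906% with at least 4 sebum UMIs, 0.652% with mitochondrial UMIs at most 5%, 1.07% without the highest doublet scores (4 WT and 33 KO members removed) and 0.937% over deep cells, the last added after seeing the data; the WT share was 1.07% with at least 3000 UMIs per barcode. With the mitochondrial limit of 5% the fatty acid median was 0.42 and the IL-17 median -1.03. The mean of the CPM of single cells gave 1004 higher genes and a fatty acid median of 0.41. Thinning to 1000 UMIs gave 148 higher and 74 lower genes of 1602 measured and a fatty acid median of 0.50; a minimum of 100 UMIs per gene gave 200 and 200 of 6334. The IL-17 median was -1.73 with no minimum, and the fatty acid median 0.25 within groups by Fa2h level, an alternative added after seeing the data. The cause was not tested, except that fewer genes are measured after thinning or with a higher minimum. Tmem45a was reversed, at -0.40, without the highest doublet scores. Of 478 values of named genes past 2-fold 477 kept their sign, and of 79 of lists past 2-fold 79 did. Many of these genes were chosen for large ratios in these same cells, and the named genes include the rule genes, so these counts are a description. With a minimum of 100 UMIs per gene, the ratios of named genes are those of the main setting. Those values keep their sign and stay inside the counting limits by construction, in these counts and the next ones. With smaller ratios included, 759 of 781 values of named genes and 350 of 362 values of lists kept their sign. Of all these values 318 moved outside the counting limits of the main setting and 824 stayed inside. No paired analysis was possible because each genotype is 1 library. Depth limits cells under 10000 UMIs most, in which genes at low level are seen by chance.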
